A study of Mus musculus with 12 samples.

Results

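Expression of 10 genes of the Myc and growth control circuit was examined in the proximal colon of 6 week-old mice. The genes were the Myc family (Myc, Mycl and Mycn), the D-type cyclins (Ccnd1, Ccnd2 and Ccnd3), their kinase partner Cdk4, and the growth genes Odc1, Cad and Ncl. They were taken by symbol from a list of names, and all 10 were found among the 38924 genes of the count tables. RNA-Seq libraries had been made from proximal colonic mucosa, 1 library per mouse, with 6 mice of the APC Min/+ genotype and 6 of the WT genotype, all female and of the C57BL/6 strain, at 6 weeks of age. APC Min/+ mice carry 1 Apc allele with a truncating point mutation, in all their cells, and 1 normal allele, whereas WT mice carry 2 normal alleles. No agent was given to either group. According to the study's methods the genotypes were kept in separate cages, so genotype and cage cannot be told apart, and a section of colon was taken from each mouse, so that each value is a sum over all cell types of that section. In such bulk samples, fewer cells of a type and less RNA per cell cannot be told apart.

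Myc is a transcription factor that binds DNA as a dimer with Max, most often at the E-box CACGTG, and drives genes for ribosome production, nucleotide synthesis and entry into the cell cycle. In the intestine it acts downstream of Wnt signaling. When Apc, which targets beta-catenin for destruction, is lost, beta-catenin accumulates and with TCF factors raises the transcription of Myc and of other genes in crypt cells. D-type cyclins activate Cdk4 and Cdk6, which phosphorylate the retinoblastoma protein and open the way from G1 to S phase. Mice of the Min strain keep a normal Apc allele in most cells, and tumors form where that allele is lost. The comparison here therefore asks whether genes of this circuit differed between genotypes in colonic tissue taken before polyps were seen.

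The libraries held between 50313805 and 197914821 counts on genes, and 3 counts corresponded to 0.0152 to 0.0596 CPM, so that depth did not limit the detection of any of the 10 genes. CPM stands for counts relative to the library total, scaled with TMM factors. Epithelial markers summed to 7467 to 14279 CPM and smooth muscle markers to 4391 to 6959 CPM, so RNA of smooth muscle cells was present in every library labelled as mucosa. A pair of APC Min/+ mice stood apart, since Hoxa13, Hoxb13 and Hoxd13, which mark the distal colon, summed to 467 CPM for M10_2 and 545 CPM for M13_1, against 0.976 to 2.86 CPM in the other 10 mice. Values without these 2 mice are given for each of the 10 genes and for some of the other genes named. Fibroblast markers summed to 1790 to 2720 CPM in APC Min/+ mice and 975.1 to 2095 CPM in WT mice, with M10_2 highest and a median log2 fold change of 0.63 over the 5 markers, against 0.34 over the 6 smooth muscle markers. The fibroblast markers did not move alike. M10_2 was highest for Col1a1, Col1a2 and Col3a1, but its Dcn, 378 CPM, was near the lowest value, 368 CPM in M8_2. Dcn lay at 368 to 736 CPM in APC Min/+ mice and 437 to 624 CPM in WT mice. Pdgfra lay at 71.1 to 100 CPM and 61.3 to 90.9 CPM. None of the 11 fibroblast and smooth muscle markers passed the threshold given below, which 0 of all 20311 genes tested passed. The part of such cells in the values below was not tested. Apc transcripts were counted at 153.5 to 238.7 CPM over the 12 mice, and as Min is a point mutation these counts do not tell the alleles apart.

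The 10 genes spanned a wide range of levels. Per length, as RPKM (TMM-scaled CPM per kilobase of the gene model), Odc1 had the highest mean over the 12 mice, 59.8 ± 11.1 RPKM (SD, n = 12), and Mycn the lowest, 0.452 ± 0.315 RPKM (SD, n = 12). Between them, from high to low, mean levels were 41.4 RPKM for Ncl, 30.1 RPKM for Ccnd2, 22.3 RPKM for Cdk4, 18.98 RPKM for Ccnd1, 5.36 RPKM for Ccnd3, 5.196 RPKM for Myc, 2.91 RPKM for Mycl and 2.41 RPKM for Cad. Of the 20311 genes tested, 95.3% had a lower mean RPKM than Odc1, 59.8% a lower one than Myc and 23.3% a lower one than Mycn. Of the neighbours in this order, Ccnd1 and Ccnd3 were the only pair whose ranges over the 12 mice did not overlap, with Ccnd1 higher in 12 of 12 mice by 1.83 ± 0.143 on the log2 RPKM scale (SD over mice). Myc was higher than Mycl in 12 of 12 mice as well, although their ranges overlapped. Ccnd3 and Myc could not be ordered, since Ccnd3 was the higher of the pair in 5 of 12 mice. Odc1 was above Ncl in 11 of 12 mice, Ncl above Ccnd2 in 10, Ccnd2 above Cdk4 in 9, Cdk4 above Ccnd1 in 9 and Mycl above Cad in 10.

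**Figure D1:**
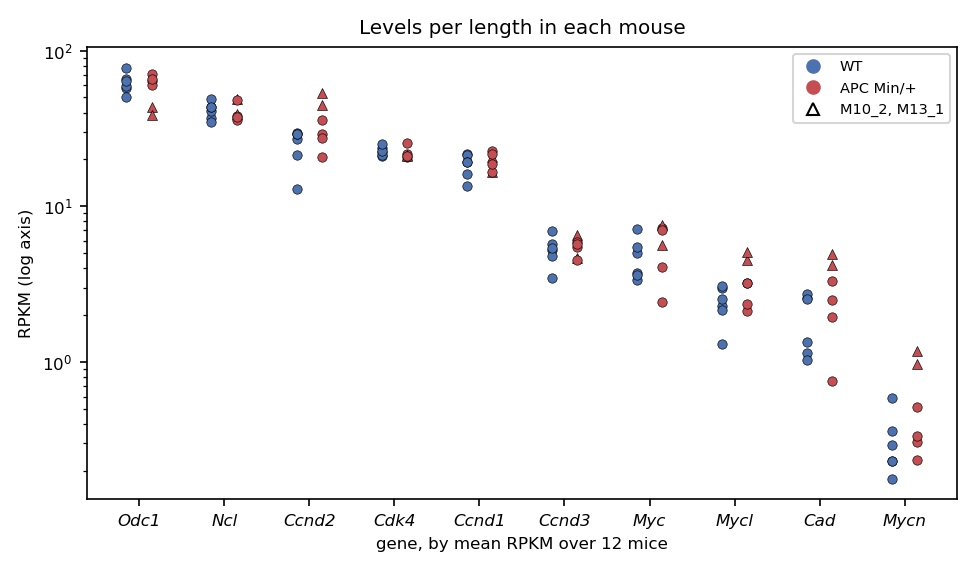
Level per length of each gene in each mouse, as RPKM on a log axis, with genes ordered by their mean over 12 mice; blue points are WT mice, red points APC Min/+ mice, and triangles M10_2 and M13_1. Odc1 leads at a mean of 59.8 RPKM and Mycn is lowest at 0.452 RPKM, and the one step between neighbours without overlap lies between Ccnd1 and Ccnd3.

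No gene of the circuit differed between the genotypes at the threshold used, an FDR under 0.05 with at least a 2-fold change in edgeR's quasi-likelihood test. All 10 genes passed the filter on low counts and 0 of 10 passed the threshold, which 0 of all 20311 genes tested (0%) passed. The study itself reported genes past the same FDR and fold limits from edgeR, without naming which of its tests was used. The lowest FDR of the 10 was 0.908 and the highest 0.999. By unadjusted p under 0.05, 1 of 10 was higher in APC Min/+ mice, against 3.46% of all genes tested, and 0 of 10 were lower, against 1.81%. That count of 1, Mycn, moved when single mice were left out. It was 4 (Mycl, Mycn, Cad and Ccnd2) without M2_A and 2 (Mycl and Mycn) without M20_1 or M17_2. It was 1 without M8_2 (Mycn) or M19_1 (Mycl), and 0 without any other mouse. It was 2, Mycl and Mycn, in DESeq2, the likelihood ratio test, edgeR's exact test and the fit without a filter, and 0 with RLE size factors and in the permutation test. Over all genes tested, the number with an unadjusted p under 0.05 (either direction) moved too. From 1071 of 20311 with every mouse, it rose to 1828 of 20248 without M2_A. Without M20_1 it was 1257 of 20282, and without M17_2 1211 of 20307. With M18_2b left out it was 1351 of 20255, with M10_2 524 of 20078 and with M13_1 601 of 20220. Without any other single mouse it lay between 752 and 1119. The moves were thus not confined to the 10 genes. The values of APC Min/+ and WT mice overlapped for all 10 genes, whereas they were apart for 0.118% of all genes tested. The log2 fold change (APC Min/+ over WT) was above 0 for 8 genes and below 0 for 2, with a median of 0.17 over the 10 genes and -0.0077 over all genes tested.

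**Figure D2:**
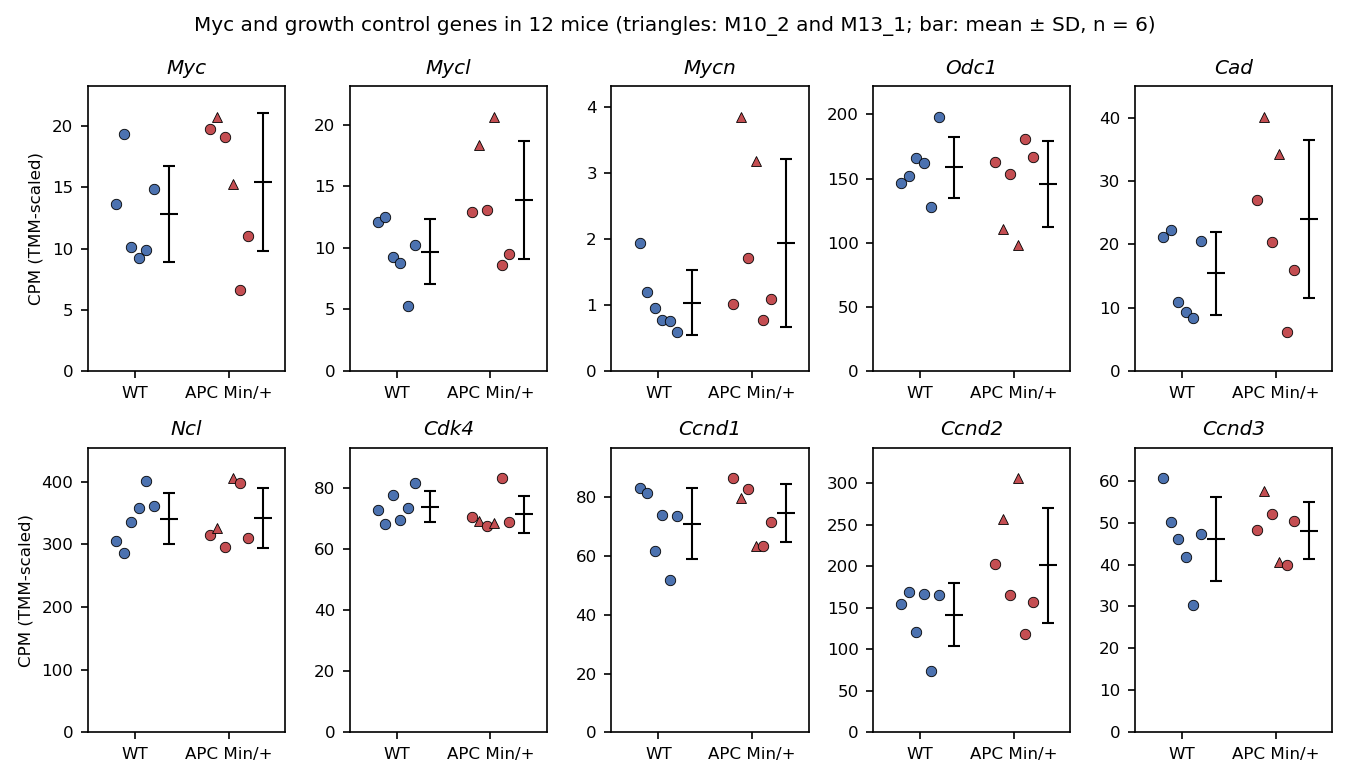
TMM-scaled CPM of each of the 10 genes in 6 WT mice (blue) and 6 APC Min/+ mice (red), with the mean and SD of each group as a black bar and M10_2 and M13_1 as triangles; each panel has its own axis from 0. The groups overlap in every panel, and the triangles are the highest points for Mycl, Mycn, Cad and Ccnd2 and the lowest for Odc1.

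Within the Myc family, the member most abundant in the tissue showed the smallest difference. Myc (ENSMUSG00000022346.8, chromosome 15, 61985391 to 61990374, forward strand, GRCm38) was counted at 6.58 to 20.8 CPM in APC Min/+ mice with a median of 17.15 CPM, and at 9.20 to 19.3 CPM in WT mice with a median of 11.9 CPM. The lowest and the highest values of the series were thus both in APC Min/+ mice, M2_A and M10_2, and the WT range lay inside that of the APC Min/+ mice. Mean Myc was 15.4 ± 5.63 CPM in APC Min/+ mice and 12.8 ± 3.91 CPM in WT mice (SD, n = 6 each), a ratio of 1.20 with a 95% interval of 0.801 to 1.80 (edgeR quasi-likelihood FDR = 0.910). For Myc the log2 fold change was 0.26 with a standard error of 0.271, and 0.14 with a standard error of 0.304 without M10_2 and M13_1. The difference was smaller than the spread between mice of either genotype, and the interval covers ratios on both sides of 1.

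Mycl, a paralog of Myc that binds the same sites with Max, was on average higher in APC Min/+ mice. Mycl (ENSMUSG00000028654.7, chromosome 4, 122995652 to 123002485, forward strand) was counted at 8.62 to 20.6 CPM with a median of 12.98 CPM in APC Min/+ mice, and at 5.24 to 12.5 CPM with a median of 9.75 CPM in WT mice. M13_1 and M10_2 held the highest values, and 4 of 6 APC Min/+ mice were above the highest WT mouse. The log2 fold change of Mycl was 0.52 with a standard error of 0.246 (edgeR quasi-likelihood p = 0.0543, FDR = 0.908, and p = 0.106 in a two-sided exact permutation test of the means), and without M10_2 and M13_1 it was 0.19 with a standard error of 0.223.

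Mycn, the third paralog and best known from embryonic and neural tissue, had the largest difference of the 10 genes and also the lowest level. Mycn (ENSMUSG00000037169.8, chromosome 12, 12936093 to 12941914, reverse strand) was counted at 0.778 to 3.85 CPM with a median of 1.40 CPM in APC Min/+ mice and at 0.588 to 1.94 CPM with a median of 0.863 CPM in WT mice, on raw counts of 48 to 763 per mouse. Mouse M10_2 was at 3.85 CPM, M13_1 at 3.18 CPM, and the other 4 APC Min/+ mice all lay within the WT range. The log2 fold change of Mycn was 0.91 with a standard error of 0.422 (edgeR quasi-likelihood p = 0.0492, FDR = 0.908), while an exact permutation test of the means over the mice gave p = 0.141 (two-sided, smallest possible p 0.0022). Without M10_2 and M13_1 the log2 fold change was 0.16 with a standard error of 0.332.

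Of the 3 growth genes, Cad varied most between mice and Ncl least. Cad encodes the enzyme that carries out the first steps of pyrimidine synthesis, Odc1 encodes ornithine decarboxylase, the first enzyme of polyamine synthesis, and Ncl encodes nucleolin, an abundant protein of the nucleolus. Cad (ENSMUSG00000013629.10, chromosome 5, 31054780 to 31078479, forward strand) was counted at 6.17 to 40.2 CPM in APC Min/+ mice with a median of 23.7 CPM, and at 8.40 to 22.2 CPM in WT mice with a median of 15.8 CPM. The highest values were those of M10_2 and M13_1 and the lowest that of M2_A, all 3 of them APC Min/+ mice. Highest and lowest value differed 6.52-fold, against 1.42-fold for Ncl. The log2 fold change of Cad was 0.64 with a standard error of 0.395 (edgeR quasi-likelihood FDR = 0.908), and 0.17 with a standard error of 0.391 without M10_2 and M13_1.

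Odc1 (ENSMUSG00000011179.7, chromosome 12, 17544794 to 17551505, forward strand) was counted at 98.5 to 181 CPM with a median of 158 CPM in APC Min/+ mice and at 128 to 198 CPM with a median of 157 CPM in WT mice. The medians were thus near each other, and M13_1 and M10_2, the highest mice for Cad and Mycn, were the lowest 2 of all 12 for Odc1, at 98.5 and 110.7 CPM. For Odc1 the log2 fold change was -0.12 with a standard error of 0.160 (edgeR quasi-likelihood FDR = 0.911), and it turned to 0.066 with a standard error of 0.122 without those 2 mice. Ncl (ENSMUSG00000026234.6, chromosome 1, 86344719 to 86359400, reverse strand) was counted at 295.7 to 406 CPM in APC Min/+ mice and at 286 to 401 CPM in WT mice, with medians of 320.0 and 347 CPM. Its means of 342 ± 47.8 CPM and 341 ± 41.3 CPM (SD, n = 6 each) gave a ratio of 1.001 with a 95% interval of 0.837 to 1.20. For Ncl the log2 fold change was 0.0015, and -0.051 without M10_2 and M13_1.

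The D-type cyclins differed from each other in level and in how much they varied. Ccnd2 (ENSMUSG00000000184.9, chromosome 6, 127125162 to 127152193, reverse strand) was counted at 119 to 306 CPM with a median of 184 CPM in APC Min/+ mice and at 73.7 to 169 CPM with a median of 160.1 CPM in WT mice. M13_1, M10_2 and M8_2 were above every WT mouse, and the WT mouse M17_1 stood lowest of the 12. The log2 fold change of Ccnd2 was 0.51 with a standard error of 0.247 (edgeR quasi-likelihood p = 0.0605, FDR = 0.908, and p = 0.128 in the exact permutation test), and 0.18 with a standard error of 0.223 without M10_2 and M13_1.

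Ccnd1, the D cyclin most often cited as a target of beta-catenin, and Ccnd3 varied less between mice. Ccnd1 (ENSMUSG00000070348.4, chromosome 7, 144929931 to 144939925, reverse strand) was counted at 63.4 to 86.5 CPM with a median of 75.7 CPM in APC Min/+ mice and at 51.8 to 83.1 CPM with a median of 73.8 CPM in WT mice. Ccnd3 (ENSMUSG00000034165.10, chromosome 17, 47505051 to 47599691, forward strand) was counted at 39.9 to 57.4 CPM and 30.3 to 60.6 CPM, with medians of 49.2 and 46.7 CPM. Without M10_2 and M13_1 the log2 fold changes of 0.072 and 0.062 became 0.10 for Ccnd1 and 0.047 for Ccnd3. The ratio of APC Min/+ over WT mice was 1.05 for Ccnd1 (95% interval 0.865 to 1.28) and 1.04 for Ccnd3 (95% interval 0.836 to 1.30). Leaving out the WT mouse M17_1, which had the lowest value of both, turned the log2 fold change to -0.0041 for Ccnd1 and -0.036 for Ccnd3.

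Cdk4 was the steadiest of the 10 genes between mice. Cdk4 (ENSMUSG00000006728.6, chromosome 10, 127063534 to 127067920, forward strand) was counted at 67.5 to 83.1 CPM with a median of 68.8 CPM in APC Min/+ mice and at 68.1 to 81.6 CPM with a median of 73.0 CPM in WT mice. The SD was 6.86% of the mean among WT mice, where the median over all genes tested was 22.3% and Mycn reached 47.3%. The ratio of APC Min/+ over WT mice was 0.966 with a 95% interval of 0.854 to 1.09 (edgeR quasi-likelihood FDR = 0.924), the narrowest interval of the 10. Its log2 fold change of -0.050 was -0.026 without M10_2 and M13_1. The APC Min/+ mouse M2_A held the highest value, 83.1 CPM, while the other 5 lay between 67.5 and 70.4 CPM.

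**Figure D3:**
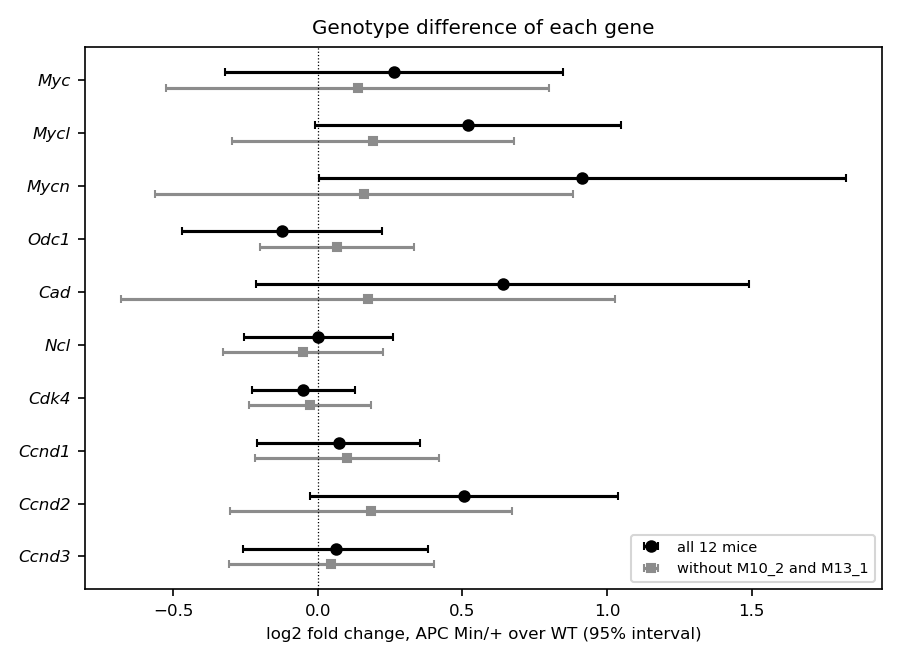
Log2 fold change of each gene, APC Min/+ over WT, with its 95% interval, from the fit of all 12 mice (black circles) and from the fit without M10_2 and M13_1 (grey squares). The intervals of 9 genes include 0 in the fit of 12 mice and that of Mycn begins at 0.0036, while all 10 include 0 in the fit of 10 mice.

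The promoter window of Cdk4 was the only one of those matched that held the motifs searched for. RefSeq promoter windows of 300 bases, from 250 before to 50 after the annotated start site (GRCm38.p6), were matched for 7 of the 10 genes, with 2 windows for Ccnd3, and were searched on both strands for the E-box CACGTG, which reads the same on both, and for the TCF motif CTTTGAT, whose reverse is ATCAAAG. Myc, Ccnd1 and Ccnd2 were not matched. The Cdk4 window held 4 E-boxes, beginning 172, 118, 98 and 11 bases before the start site, and 1 TCF motif beginning 52 bases before it, and the 2 motifs did not overlap. The other 7 windows held neither. Sequence outside the windows, such as that more than 50 bases after the start site, was not searched, so these genes may hold the motifs elsewhere. Over all 32851 windows, 7.15% held the E-box and 3.73% the TCF motif. The Cdk4 window is printed because it alone held the motifs, with those of Cad and Odc1, the enzyme genes of the set, for comparison. Capitals mark the motifs, and a match is a description of the letters only.
Cdk4, chr10:127063285-127063584, forward strand: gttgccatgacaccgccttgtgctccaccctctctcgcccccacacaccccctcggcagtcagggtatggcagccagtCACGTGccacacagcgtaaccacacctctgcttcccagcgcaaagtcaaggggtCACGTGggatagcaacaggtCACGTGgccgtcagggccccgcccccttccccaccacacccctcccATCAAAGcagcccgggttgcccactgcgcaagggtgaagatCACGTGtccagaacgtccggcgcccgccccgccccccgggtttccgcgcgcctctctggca
Cad, chr5:31054530-31054829, forward strand: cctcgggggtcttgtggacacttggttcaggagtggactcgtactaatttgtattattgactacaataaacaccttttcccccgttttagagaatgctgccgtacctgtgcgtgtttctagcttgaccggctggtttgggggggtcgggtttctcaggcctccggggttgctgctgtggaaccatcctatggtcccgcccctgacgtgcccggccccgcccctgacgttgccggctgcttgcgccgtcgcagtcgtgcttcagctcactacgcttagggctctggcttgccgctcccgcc
Odc1, chr12:17544623-17544922, forward strand: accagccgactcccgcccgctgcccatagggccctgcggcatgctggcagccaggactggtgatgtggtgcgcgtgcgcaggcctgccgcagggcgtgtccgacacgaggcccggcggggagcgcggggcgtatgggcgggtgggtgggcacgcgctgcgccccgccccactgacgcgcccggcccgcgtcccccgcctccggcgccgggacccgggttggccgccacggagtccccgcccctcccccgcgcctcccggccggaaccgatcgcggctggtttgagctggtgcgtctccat
No factor binding was measured here, and nothing about the factors follows from these letters.

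The make-up of both families was compared per length, as each member's share of the summed RPKM. Among D-type cyclins, Ccnd2 was the main transcript in 11 of 12 mice, at 49.8% to 71.7% of the sum in APC Min/+ mice and 43.3% to 54.8% in WT mice. In the WT mouse M17_1, Ccnd1 reached 45.2% and exceeded Ccnd2. The largest Ccnd2 shares were those of M13_1 at 71.7% and M10_2 at 62.2%. Ccnd3 contributed 6.18% to 12.4%. In the Myc family, Myc itself was the main transcript in all 12 mice, with 48.0% to 70.3% of the sum, Mycl supplied 25.2% to 44.5% and Mycn 2.19% to 8.76%. The summed level was 4.79 to 13.4 RPKM for the Myc family and 29.9 to 74.9 RPKM for the D-type cyclins. Shares overlapped between genotypes for all 6 genes.

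**Figure D4:**
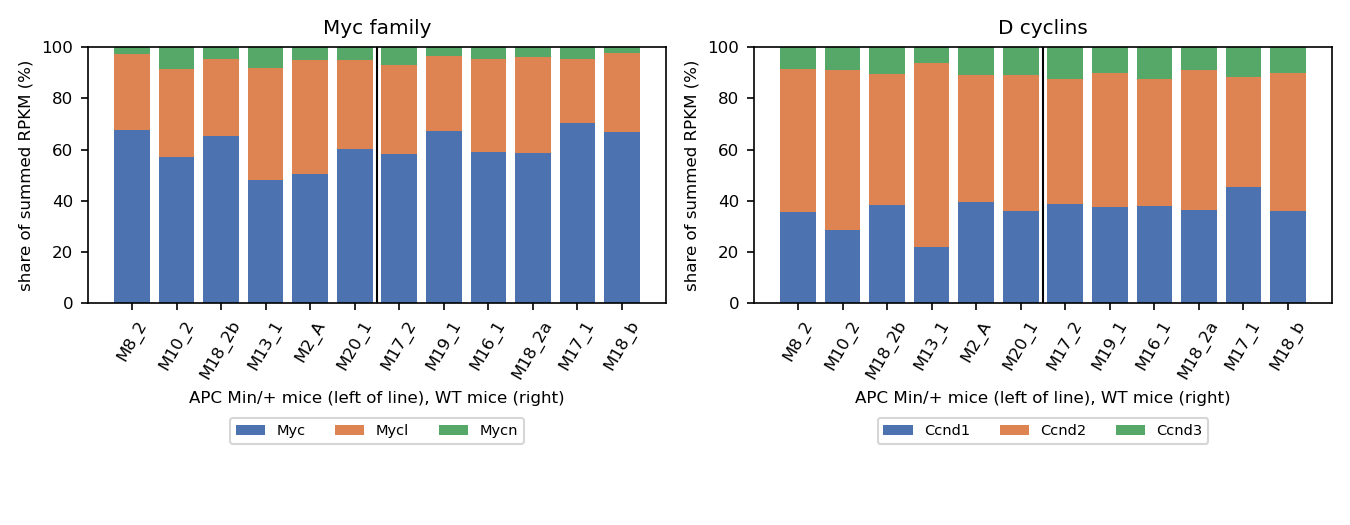
Share of each gene in the summed RPKM of the Myc family (left) and of the D-type cyclins (right), in percent, one bar per mouse, with APC Min/+ mice left of the vertical line and WT mice right of it. Myc is the largest part of its family in every mouse, and Ccnd2 takes its largest share, 71.7%, in M13_1.

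For Mycl, Mycn, Cad and Ccnd2, the 2 highest values of the 12 were those of M10_2 and M13_1, where the same was true of 11.8% of all genes tested, and for Odc1 they held the 2 lowest, as for 12.2% of all genes. These mice were singled out after their values had been seen. Without them, 0 of 10 genes passed the threshold (0% of 19978 genes tested), 0 of 10 had an unadjusted p under 0.05 (1.59% of all genes), and 0 of 10 had groups that did not overlap (0.245% of all genes). The log2 fold changes of the 10 genes then lay between -0.051 for Ncl and 0.19 for Mycl. Both mice also carried the Hox13 transcripts named above, had the 2 lowest sums of adipocyte markers, 20.08 and 35.5 CPM against 63.0 CPM or more in the others, and had the 2 largest library slopes on gene length, 0.10 and 0.11 log2 CPM per doubling of length against 0.055 or less. Over the 12 mice Mycn, Mycl, Ccnd2 and Cad followed that slope with r = 0.77, 0.84, 0.84 and 0.86. The part of colonic position, of attached fat and of length in these values was not tested.

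Several of the 10 genes moved together from mouse to mouse, and for some pairs the Pearson r differed between the genotypes. Mycl with Ccnd2 had an r of 0.96 among APC Min/+ mice and 0.88 among WT mice, whereas Mycl with Ccnd1 had 0.12 and 0.92. Mycn with Ccnd2 had 0.85 and 0.22. Such differences were not tested. Over the 12 mice, 8 of the 45 pairs had a Pearson r of at least 0.7 on log2(CPM + 0.5) and 3 had an r of -0.7 or less, with a median of 0.27. These correlations are a description over 12 libraries that share their normalization. No share over pairs of all genes is given here, so the counts of pairs are not set against other genes. The highest r was that of Mycl with Ccnd2, 0.94, and it remained at 0.88 without M10_2 and M13_1. Myc and Cad followed each other with an r of 0.91, which was 0.90 among APC Min/+ mice, 0.92 among WT mice and 0.94 without M10_2 and M13_1. Mycn and Odc1 ran opposite ways with an r of -0.82, and this r was -0.42 without the same 2 mice. Ncl ran opposite to Ccnd3 (r = -0.79) and to Ccnd1 (r = -0.79), and these values were -0.83 and -0.79 without M10_2 and M13_1. Odc1 and Myc, classed together as a target and its regulator, showed an r of -0.34, which was -0.50 in APC Min/+ mice and 0.22 in WT mice.

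The libraries also differed in the composition of the transcripts they recovered, and the levels of these genes moved with that. For each library, the deviation of 9909 well-counted genes from their mean was regressed on the GC content of their transcripts. The slope ran from -0.41 log2 CPM per 10 percentage points of GC in the WT mouse M17_1 and -0.20 in M18_2a and M2_A to 0.19 in M8_2 and 0.20 in M10_2. The slopes of APC Min/+ and WT mice overlapped. Ccnd3 followed the slope with r = 0.91, Ccnd1 with 0.85, Myc and Cad with 0.79 each, and Ncl ran against it with r = -0.75 (n = 12 mice). Ncl has the lowest transcript GC of the 10, 42.8%, and Cad the highest, 57.4%, but transcript GC did not order the genes by r. Cdk4 and Myc, both at 53.3%, had r of -0.29 and 0.79, and Ccnd2 at 47.1% had 0.65. Mycl had 0.73 and Mycn 0.46, while Odc1 showed no relation to the slope (r = 0.013). Across all well-counted genes the median absolute r with the slope was 0.58, and 35.7% reached 0.7. A slope on gene length gave r = 0.86 for Cad, 0.84 for Mycl and Ccnd2, 0.79 for Myc and -0.79 for Cdk4. It gave 0.77 for Mycn, 0.65 for Ccnd1, 0.56 for Ccnd3, -0.44 for Ncl and -0.58 for Odc1. No share over all genes is given here for the length slope. Both slopes are computed from the same libraries as the levels, and their part in the correlations between genes was not tested.

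**Figure D5:**
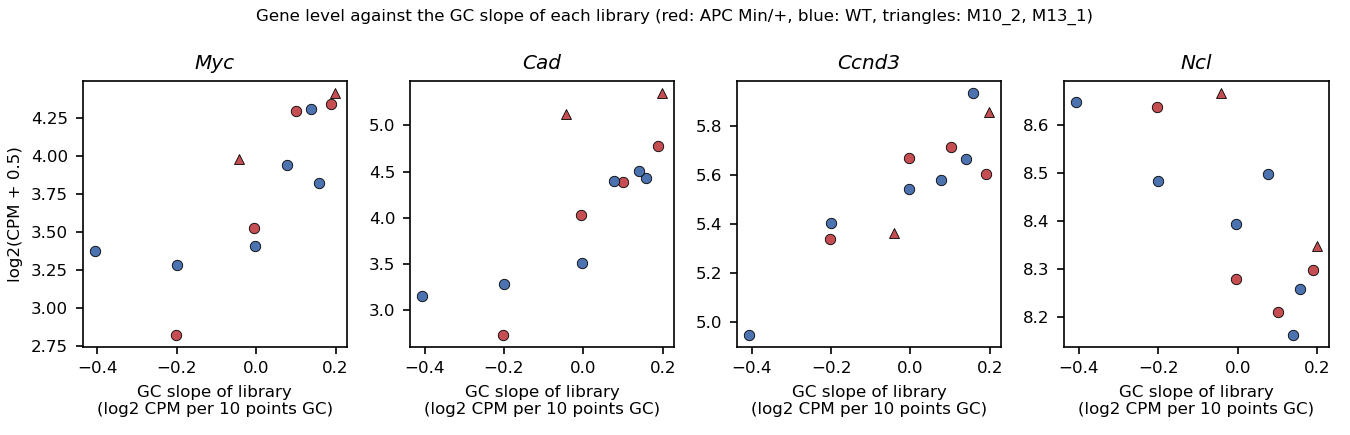
Log2(CPM + 0.5) of Myc, Cad, Ccnd3 and Ncl against the GC slope of the same library (log2 CPM per 10 percentage points of transcript GC), one point per mouse, red for APC Min/+ and blue for WT, triangles for M10_2 and M13_1. Myc, Cad and Ccnd3 lie higher in libraries with a larger slope (r = 0.79, 0.79 and 0.91) and Ncl lower (r = -0.75).

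The genes most like 8 of the members were then listed by Pearson r over the 12 mice among 9954 genes with a mean of at least 10 CPM. The nearest to Myc were Rfx1 (r = 0.96), Srrm1, Zc3h4, Dhx16 and Sf1 (r = 0.95 to 0.96), and their own log2 fold changes lay between 0.041 and 0.24. The nearest to Cad were Lrrk1 and Ppp5c, and to Mycn Coq8a and Slc7a8, with r of 0.96 to 0.98. Ccnd2 was most like Tjp1, which encodes a tight junction protein (r = 0.98), and Adamts15 (r = 0.97). Ccnd1 was most like Mbp and Usp24 (r = 0.94 and 0.93), Ccnd3 like Entpd2 and Cbx6 (r = 0.96 and 0.95), and Ncl like Utp14a and Gtpbp10 (r = 0.94 each). Cdk4, the steadiest gene, had the weakest likeness, with Phf5a at r = 0.91 and Tor2a at r = 0.89. With the 2 mice farthest from the median of each member left out, the r of these pairs lay between 0.78, for Cdk4 with Tor2a, and 0.97, for Cad with Lrrk1.

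The wider circuit was read from 6 lists of genes with known roles. Each list held 8 to 21 tested genes. In each, 0 passed the threshold, which 0 of all 20311 genes tested (0%) passed. In each, 0 had an unadjusted p under 0.05, against 3.46% of all genes higher in APC Min/+ mice and 1.81% lower. The medians of the log2 fold changes lay between -0.030 and 0.10. Without M10_2 and M13_1 the medians were 0.017 for the Myc network (0.026 with them), 0.029 for Myc turnover (0.10), 0.094 for polyamine metabolism (0.022), -0.025 for nucleotide synthesis (0.054), 0.015 for the nucleolus (0.028) and 0.025 for the G1 kinase circuit (-0.030), so that the sign turned for the last list and for nucleotide synthesis. Over all genes tested the median was -0.0077. Among partners and antagonists of Myc, 7 of 11 genes were above 0. Max, the obligate partner, reached 206 CPM in mouse M10_2, 207 CPM in mouse M13_1 and 121 to 149 CPM elsewhere, and its log2 fold change was 0.25 with and 0.032 without those mice. Mxd1, a repressor that competes with Myc for Max, was the most abundant of this list, with a mean of 105 RPKM, and was counted at 388 to 748 CPM in APC Min/+ mice and 228 to 729.9 CPM in WT mice. Among genes that control the stability of Myc, Usp28, which removes ubiquitin from it, had the largest log2 fold change, 0.46, at 46.8 CPM and 56.6 CPM in the same mice against 18.3 to 25.7 CPM in the other mice. Huwe1, a ubiquitin ligase, was the most abundant there and had a log2 fold change of 0.12. The log2 fold changes of Usp28 and Huwe1 were -0.12 and -0.058 without M10_2 and M13_1.

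Of the enzymes around Cad, 10 of 14 nucleotide synthesis genes were above 0, with a median log2 fold change of 0.054, and 6 of 14 were above 0 without M10_2 and M13_1. These mice held the 2 highest values for 5 of the 14, Umps, Ppat, Pfas, Paics and Impdh2, of which Umps and Pfas were named after their values were seen. The same held for 2 of 8 genes of Myc turnover, 1 of 11 of the Myc network, 0 of 10 of polyamine metabolism, 1 of 21 of the nucleolus and 1 of 16 of the G1 kinase circuit, and for 11.8% of all genes tested. Ppat, the first enzyme of purine synthesis, had 24.1 CPM and 32.9 CPM there and 12.3 to 16.9 CPM elsewhere, and without them its log2 fold change moved from 0.40 to 0.014. Paics, a later enzyme of that pathway, had 114 and 142 CPM against 51.8 to 92.6 CPM, and its log2 fold change moved from 0.30 to -0.11. Impdh2, which opens the route to guanine nucleotides, was the most abundant gene of the list at 40.2 RPKM, with a log2 fold change of 0.29, and 0.12 without those mice. Around Odc1, 6 of 10 polyamine genes were above 0, and 9 of 10 without M10_2 and M13_1. Azin1, which shields ornithine decarboxylase from breakdown and was named after its values were seen, was counted like Odc1 at its lowest in M10_2 and M13_1, at 216 and 261 CPM against 373 to 597 CPM. Its log2 fold change was -0.16, and 0.090 without those mice. Sat1, which acetylates polyamines for export and was the most abundant gene of this list at 81.7 RPKM, had a log2 fold change of 0.014 (0.14 without those mice), Azin2 had 0.23 and Smox, a spermine oxidase, had 0.18.

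Around Ncl, 12 of 21 genes of the nucleolus and ribosome production were above 0. Npm1, nucleophosmin, was the most abundant at 114 RPKM, with a log2 fold change of 0.065, which was -0.071 without M10_2 and M13_1. The largest difference was that of Tcof1, a factor for ribosomal RNA transcription, counted at 6.82 to 25.0 CPM in APC Min/+ mice and 5.63 to 20.7 CPM in WT mice, with 0.43 as its log2 fold change and 0.342 as its standard error. Mybbp1a followed with 0.22, and 0.13 without those mice. In the G1 kinase circuit around Cdk4, 6 of 16 genes tested were above 0, or 11 of 16 without M10_2 and M13_1, and Cdkn2a did not pass the filter on low counts. Cdkn1a, which encodes the inhibitor p21, was the most abundant at 90.2 RPKM, with a log2 fold change of 0.17. Cdkn1c had -0.25 (-0.068 without those mice) and E2f3 0.18, each within 1.5 standard errors of 0.

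Markers of dividing cells, such as Mki67 and the replication gene Mcm2, summed to 392 to 586 CPM in APC Min/+ mice and 407 to 581 CPM in WT mice. Of the 8 markers 0 passed the threshold, which 0 of all 20311 genes tested passed. The highest sum was in M2_A, the mouse with the highest Cdk4 and the lowest Myc and Cad, but the 8 markers did not move alike. Top2a, Cdk1, Ccnb1 and Pcna were highest in M2_A. Mki67 was highest in M8_2, at 197 CPM against 188 CPM in M2_A, and Mcm2 was at 16.6 CPM in M2_A against 31.2 CPM in M8_2. M2_A also had the highest sums for smooth muscle, 6959 CPM, and for adipocyte markers, 510 CPM, against 20.08 to 288 CPM of adipocyte markers in the other 11. Whether the tissue make-up of M2_A bears on its Myc, Cad and Cdk4 values was not tested. M10_2, with the highest Myc and Cad, had the lowest sum for dividing cells, although its Mki67, 158 CPM, was above the 136 CPM of the WT mouse M17_2.

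Reads on some of these genes could include those of neighbours, since the strand setting of the counting was not given in the sources used here. Cdk4 overlaps Tspan31 on the opposite strand, which was counted at 64.0 CPM, Ccnd1 overlaps LTO1 (20.8 CPM) and Ccnd3 overlaps Bysl (11.1 CPM). For these 3 genes, reads in a stretch shared with the neighbour may not be told apart. Overlap was read from whole gene spans, and the part of the reads that lay in it was not measured. Ccnd2 overlaps the antisense transcript 9330179D12Rik, counted at 0.397 CPM, and the small nucleolar RNAs inside Ncl and Odc1 were each counted below 0.3 CPM. Myc, Mycl, Mycn and Cad overlapped no other annotated gene.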

How the data were processed

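RNA-Seq libraries of proximal colonic mucosa from 12 mice, 6 of each genotype, were analysed. The authors aligned paired reads with STAR (version 2.3.0 in the submitters' processing notes) to GRCm38, counted them with featureCounts, and deposited raw read counts per gene, with the length of each gene model, for each mouse. Gene symbols came from GENCODE M21 (37607 of 38924 identifiers matched). The 10 genes, the 6 gene lists and the marker lists were chosen with earlier results of these data known. Genes with at least 10 counts in 3 or more mice were fitted in edgeR 4.0.16 (TMM factors 0.906 to 1.10, quasi-likelihood test, genotype only), with Benjamini-Hochberg adjustment over all 20311 genes. Standard errors were the absolute log2 fold change over the square root of F. CPM were scaled by TMM factors and RPKM divided by the deposited length. Means were also compared by exact permutation of mice. The fit was tested on simulated data. Log2 total counts did not differ between genotypes beyond the spread between mice (exact permutation test, p = 0.281). Shipment and cage of each mouse were not used here, so the p-values measure only the spread between these mice. Alternatives were other normalizations, filters and tests (DESeq2 1.42.0, likelihood ratio, exact, permutation), leaving out each mouse, and, added after seeing the data, leaving out M10_2 and M13_1. Slopes on transcript GC and length were also added then. Besides all 10 members, genes were named by rule: in each list the gene of highest mean RPKM and the 2 with the largest absolute log2 fold change, and for likeness the nearest 5 to Myc and 2 to every other member, of which those of Mycl and Odc1 are not reported here. Genes such as Azin1 that fall outside it are so marked, apart from the cell type markers.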

Additional observations from a re-analysis of the deposited data

Results flagged for a closer look

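Cdk4 in the APC Min/+ mouse M2_A, at 83.1 CPM, stood far from the other 5 mice of its group, which lay between 67.5 and 70.4 CPM, with a gap of 0.796 of the group's range, above Dixon's 95% critical value for 6 samples. It was the single case among the 20 groups examined (10 genes in each genotype), a number in which chance alone would give about 1. The WT mouse M18_b had a value near it, 81.6 CPM.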

How the results depend on the processing

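In every alternative run, 0 of the 10 genes passed the threshold. The permutation test could hardly pass any gene, since its smallest possible p was 0.0022 before adjustment over 20311 genes. For all genes tested the count of calls was 33 under DESeq2, which was run on 28449 genes with its own filtering, so that test and gene set changed together, and on the same 20311 genes it was 15 under edgeR's likelihood ratio test and 10 under edgeR's exact test, and 0 under the permutation test, against 0 in the quasi-likelihood test (1071 at an unadjusted p under 0.05). The sign of the log2 fold change held for 9 of the 10 genes under the other normalization, filters and tests. For Ncl it turned, to -0.0067 with a stricter filter and -0.00090 in the permutation test. Leaving out 1 mouse at a time moved Ncl between -0.054 and 0.052, Ccnd1 between -0.0041 and 0.13, Ccnd3 between -0.036 and 0.16, Odc1 between -0.18 and -0.033, Cdk4 between -0.084 and -0.0077, Mycn between 0.59 and 1.18, Cad between 0.43 and 0.84, Mycl between 0.37 and 0.63, Ccnd2 between 0.35 and 0.63 and Myc between 0.16 and 0.43, with no FDR under 0.543. Leaving out M10_2 and M13_1, an alternative chosen after seeing the data, turned Odc1 to 0.066 and Ncl to -0.051. No paired analysis was possible because the labels pair no mouse of one genotype with a mouse of the other, and give no meaning for the parts that mouse names share, such as M18_2b (APC Min/+) and M18_2a (WT). With 6 mice a group, the 95% interval of Myc reached from 0.801 to 1.80-fold, so that a moderate difference could not be seen.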
